A study of Mus musculus with 12 samples.

Results

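The 37 genes described here mark the endothelium, the cell layer that lines blood and lymph vessels, and were taken as the rows of the deposited count table that carry their symbols. All 37 were found among the 23457 rows of the table, and all 37 were among the 13050 genes that had enough reads to be tested, with 73 to 7942 reads per library. They were read in 5 groups by role: 6 receptors of the VEGF and angiopoietin pathways, counting the phosphatase of Tek, 13 junction, surface and secreted proteins, 7 transcription factors, 3 arterial genes of Notch and ephrin signalling, and 8 genes of capillary transport and signalling.

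Endothelial cells of the heart form a dense capillary bed around the muscle fibres, through which fatty acids reach the muscle. VEGF, made largely by the surrounding muscle, acts on receptors of the endothelial surface and drives vessel growth, while angiopoietins acting on Tek keep formed vessels quiet and tight. ETS factors such as Erg and SOX factors of the Sox7, Sox17 and Sox18 subfamily hold endothelial identity, and Notch signalling separates arterial from venous cells.

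Polyadenylated RNA was sequenced from 12 hearts of adult C57BL/6J mice, 6 in each of 2 groups. Mice of both groups carried the floxed allele and are labelled with the same time, 9 to 10 weeks after tamoxifen. By their labels the noninduced mice had no Cre, and the Parkin KO mice carried MERCreMer, a Cre recombinase that tamoxifen activates, and lost Parkin in the adult heart. Parkin is a ubiquitin ligase that marks damaged mitochondria. The tissue is labelled as the whole heart, whereas the protocol states that apexes of the ventricles were frozen. Neither the promoter of MERCreMer nor tamoxifen dosing of the noninduced mice is stated in the sources used here. The deletion is described as cardiac, and the endothelium was measured within whole tissue. A lower value can therefore reflect fewer endothelial cells or less RNA per cell, which cannot be told apart.

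Libraries held 11610507 to 16884516 counted reads, and the totals of the groups overlapped (p = 0.665 in an exact permutation test, two-sided, and 0.682 after adjustment for 4 measures of the libraries). Esr1, the estrogen receptor gene whose reads can include those of the MERCreMer fusion, ran from 24.0 to 962 CPM in noninduced hearts and from 1553 to 4683 CPM in Parkin KO hearts, with the 2 highest noninduced values in libraries 1 (558 CPM) and 3 (962 CPM). CPM are read counts per 1000000 reads of the scaled library. By Xist and Y-linked reads, 8 libraries were female, 3 were male and 1, noninduced 3, held both signals. These values put the labels of noninduced libraries 1 and 3 in doubt, and both are called noninduced here as labelled. Without them, the 4 members at an unadjusted p under 0.05 kept their direction, with log2 fold changes of 0.34 for Fabp4, -0.26 for Sox7, -0.78 for Plvap and -0.13 for Eng. All 3 male libraries (2, 5 and 6) were Parkin KO, so Parkin loss, MERCreMer and sex composition cannot be fully told apart. The atrial genes Myl7, Sln and Bmp10 summed to 886, 127 and 1362 CPM in noninduced libraries 2, 4 and 5 and to between 1.36 and 47.2 CPM in the other 9 libraries. The order differed for the summed CPM of all 6 genes of the atrial list. Their sum was 3330, 647 and 5987 CPM in noninduced libraries 2, 4 and 5, but 4083 CPM in noninduced library 6 and 1547 CPM in Parkin KO library 1. Nppa had the highest mean of the 6 in both groups. It reached 4049 CPM in a noninduced heart, and at most 1450 CPM with Parkin KO. A score that weighs the 6 genes equally is the mean of their log2(CPM + 0.5), each minus its mean over all 12 libraries. By this score noninduced libraries 2, 4 and 5 were highest (3.96, 1.31 and 4.87), followed by Parkin KO library 1 (0.67). Noninduced library 6 was at -0.85. Immediate-early genes, which respond within minutes to stress, summed to 267 to 927 CPM in noninduced against 167 to 469 CPM in Parkin KO hearts, highest in noninduced library 1. All 13 of them had a log2 fold change below 0, with a median of -1.21 and no adjusted call. At an unadjusted p under 0.05 were 8 of the 13 (61.5%), beside 11.4% of all genes.

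The sequence upstream of 3 members is given to show their start regions. Eng is shown because, of the 4 members at an unadjusted p under 0.05 between the groups, it is the one with an entry in the RefSeq promoter table, and Emcn and Notch4 hold matches to the ETS letters searched. The sequences are from RefSeq, build GRCm38.p6, and end just before the annotated gene start, on the plus strand. They come from chr2:32646345-32646594 for Eng, chr3:137340828-137341066 for Emcn and chr17:34564045-34564267 for Notch4. Capitals mark the letters CAGGAA, which read TTCCTG on the other strand, or the letters CCGGAA, which there read TTCCGG.
Eng: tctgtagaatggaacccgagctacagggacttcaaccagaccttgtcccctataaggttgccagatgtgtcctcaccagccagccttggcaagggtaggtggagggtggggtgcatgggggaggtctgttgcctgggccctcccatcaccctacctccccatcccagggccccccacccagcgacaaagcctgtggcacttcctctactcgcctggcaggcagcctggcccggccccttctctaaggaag
Emcn: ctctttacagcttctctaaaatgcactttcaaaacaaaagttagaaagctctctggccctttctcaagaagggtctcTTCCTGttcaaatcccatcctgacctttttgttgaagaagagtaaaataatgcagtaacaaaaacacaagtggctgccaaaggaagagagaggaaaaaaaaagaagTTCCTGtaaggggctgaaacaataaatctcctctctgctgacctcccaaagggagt
Notch4: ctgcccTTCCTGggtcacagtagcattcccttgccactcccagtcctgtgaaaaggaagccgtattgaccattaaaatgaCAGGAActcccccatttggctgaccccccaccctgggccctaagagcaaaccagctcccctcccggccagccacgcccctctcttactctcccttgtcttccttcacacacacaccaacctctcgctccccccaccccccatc
The 250 bases of Eng had a GC content of 62.4% and held none of these letters, whereas the 239 bases of Emcn, with a GC content of 40.6%, held 2 matches. The 223 bases of Notch4 also held 2, on opposite strands, and had a GC content of 59.2%. The RefSeq table had 26 promoter windows for 19 of the 37 members. The ETS letters were in 10 of the 26 windows (38.5%), beside 35.1% of all 32851 windows of the table. SOX letters, ACAAAG or else ACAATG on either strand, were in 26.9% of member windows and 25.2% of all windows, the RBPJ letters TGGGAA in 26.9% and 21.6%, and TATAAA in 23.1% and 12.4%. A match is a description of letters and not of a bound site.

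In level per length, capillary genes stood at the top. Fabp4, a fatty acid carrier of capillary endothelium that adipocytes also make, had 624 ± 122 FPKM (SD over 12 libraries), which was 29.7% of the summed FPKM of the 37 genes. It was followed by Ly6c1, a surface protein of capillary endothelium, at 205 FPKM, the water channel Aqp1 at 154 FPKM, and Gpihbp1, which carries lipoprotein lipase to the capillary surface, at 127 FPKM. The highest genes of general endothelium were Eng, a coreceptor for BMP and TGF-β ligands, at 117 FPKM and Cdh5, the cadherin of endothelial junctions, at 106 FPKM. At the other end stood the arterial genes Hey1 (6.78 FPKM) and Efnb2 (6.43 FPKM) and the transcription factor gene Sox17 (3.67 FPKM), so that the members spanned a 170-fold range. In this order, 10 of 36 pairs of neighbours differed by more than the larger of their SDs, and the other 26 pairs did not.

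**Figure D1:**
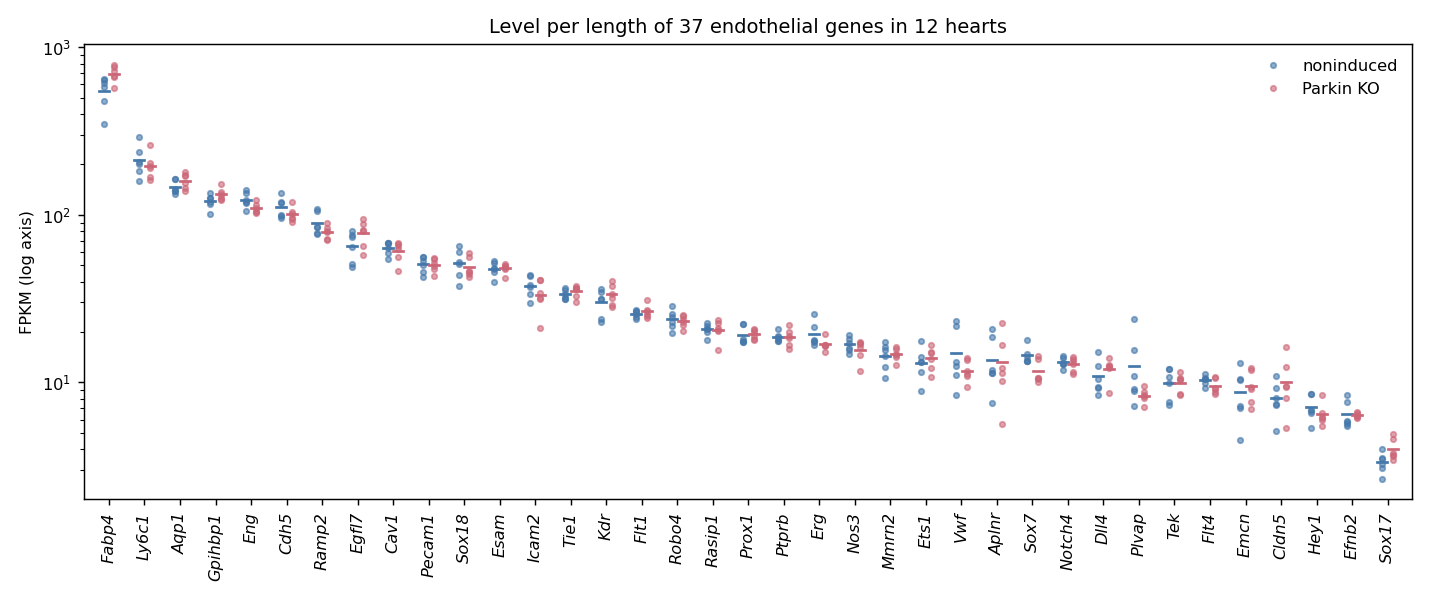
FPKM (reads scaled by gene length and library size, log axis) of the 37 endothelial genes in order of their mean, with a point for each heart and a short line for the mean of each group. Fabp4 lies highest at a mean of 624 FPKM and Sox17 lowest at 3.67 FPKM, and the points of the groups overlap for every gene.

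Lymphatic identity rests on few reads in these libraries. Flt4, the receptor for VEGF-C on lymphatic endothelium, and Prox1, the lymphatic master regulator, were at 9.91 and 19.3 FPKM, but Flt4 is also made by some capillaries and Prox1 by heart muscle. Of the lymphatic markers outside the 37 genes, Lyve1, which resident macrophages also make, had 23.1 CPM in noninduced hearts, Reln 7.28 CPM and Pdpn 5.45 CPM, and Ccl21a had no read.

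No member passed the threshold of 0.05 between Parkin KO and noninduced hearts after adjustment over all 13050 genes (edgeR, quasi-likelihood F test, two-sided), and neither did any other gene (0%). The adjusted p-values of the members ran from 0.417 to 0.967. At an unadjusted p under 0.05, 4 of 37 members differed (10.8%), beside 1483 of 13050 genes (11.4%), a share near the background. DESeq2 called 10 genes, none of them a member, and limma-voom called none. Of the members, 24 had a log2 fold change below 0, where 48% of all genes did, and 13 were above 0, where 52% of all genes were. Their median was -0.03, beside 0.01 for all genes.

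The spread between hearts allows these differences to be bounded. The 95% interval of the log2 fold change lay within 1 unit of 0 for 36 of 37 members, beside 93.3% of all genes, with Plvap as the exception. It lay within a 1.5-fold change in either direction for 31 of 37 members, beside 71% of all genes. The groups overlapped for all 37 members, as they did for all but 0.345% of all genes. Summed over the members, noninduced hearts had 4094 ± 236 CPM (SD, n = 6) and Parkin KO hearts 4006 ± 112 CPM (SD, n = 6), a difference smaller than the SD of either group.

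**Figure D2:**
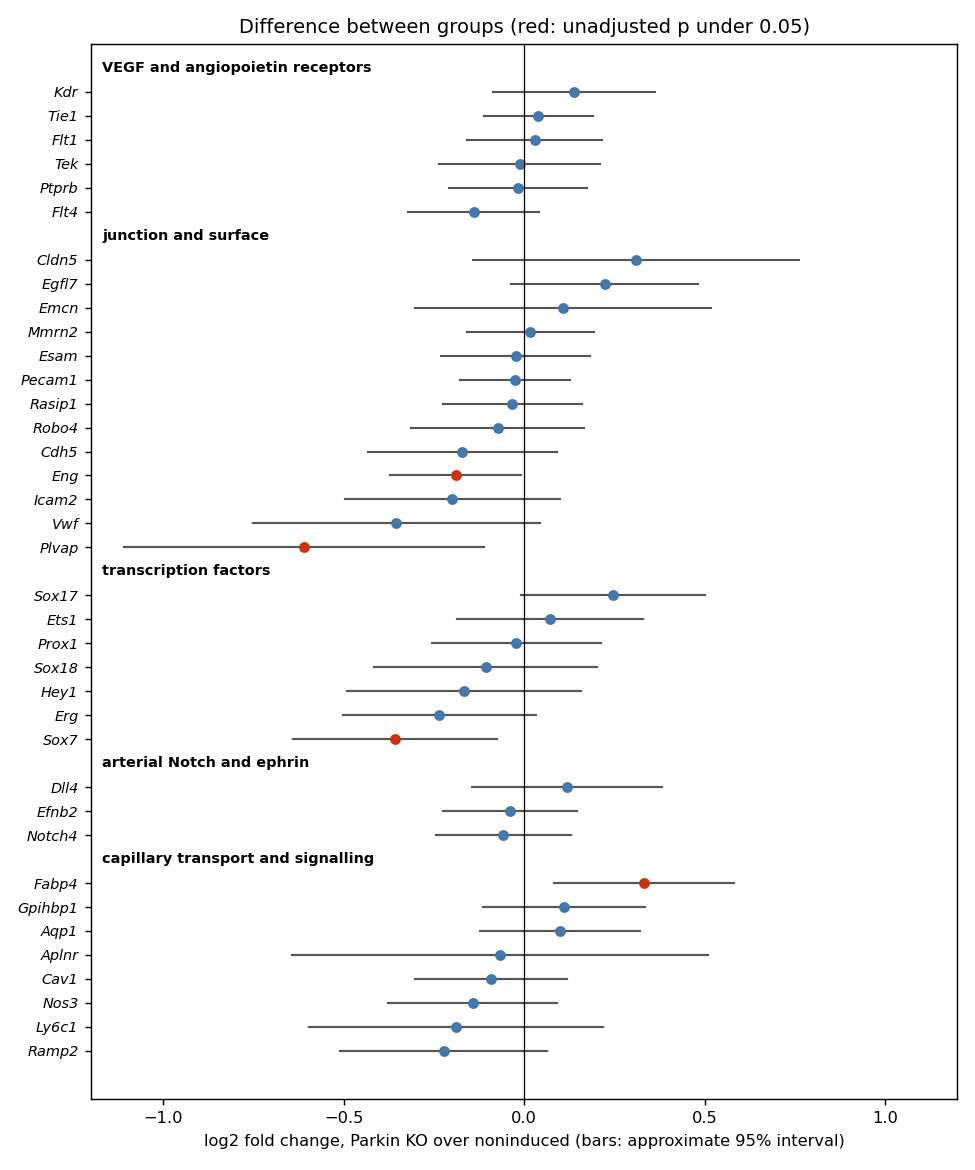
Log2 fold change of each member, Parkin KO over noninduced, with its approximate 95% interval, in the 5 role groups; red points mark an unadjusted p under 0.05 (edgeR). The points run from -0.61 for Plvap to 0.33 for Fabp4, and none of the 37 passed the adjusted threshold.

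The receptors that read VEGF and angiopoietins differed little between the groups. Of 6 genes, 3 had a log2 fold change above 0 and 3 below, none reached an unadjusted p under 0.05, and their median was 0.01. Tie1, the partner of Tek and the highest of the group per length, had 116, 132 and 135 CPM as the lowest, median and highest noninduced value and 115, 137 and 140 CPM in Parkin KO hearts. The ranges of Tie1 nearly coincided, and over all 12 hearts its highest value was 1.21 times the lowest, the narrowest range of any member. The fitted log2 fold change came to 0.04 ± 0.071 (SE; edgeR, adjusted p = 0.833).

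Flt4 had the smallest p of the receptors. Its noninduced values had a low of 55.6, a median of 59.2 and a high of 70.4 CPM, and its Parkin KO values a low of 50.2, a median of 53.5 and a high of 62.6 CPM. Parkin KO hearts were below the noninduced mean in 5 of 6 cases, with overlap, and the difference on the log2 scale was -0.14 ± 0.085 (adjusted p = 0.503, edgeR). Kdr, the main signalling receptor for VEGF, was at 165 ± 21.7 CPM (SD, n = 6) in noninduced and 182 ± 23.6 CPM (SD, n = 6) in Parkin KO hearts. Flt1, which binds VEGF tightly and acts largely as a decoy, was at 164 ± 13.5 and 168 ± 19.3 CPM. For Tek, the angiopoietin receptor, the means were 46.2 ± 6.59 and 45.9 ± 5.04 CPM, and for Ptprb, the phosphatase that restrains Tek, they were 229 ± 12.4 and 226 ± 29.2 CPM. Each of these 4 differences was smaller than the SD of either group.

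Among the 15 measured ligands, coreceptors and further genes of the list made for this pathway, 6 were above 0 and 9 below. None passed the adjusted threshold. The smallest p belonged to Angptl4, which the list holds but which is a secreted inhibitor of lipoprotein lipase and not an angiopoietin. Angptl4 had 5.33 ± 2.53 CPM in noninduced against 15.3 ± 14.5 CPM in Parkin KO hearts (SD, n = 6 each). Its log2 fold change of 1.5 ± 0.531 (edgeR, adjusted p = 0.417) was 0.28 among the female libraries and 0.86 without Parkin KO library 6, which held 42.5 CPM. Plcg1, the phospholipase downstream of Kdr, had a log2 fold change of 0.18 ± 0.080 (adjusted p = 0.432, edgeR).

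The 13 junction, surface and secreted proteins included Plvap and Eng, the 2 of them at an unadjusted p under 0.05, both lower in Parkin KO hearts. Of the 13, 4 were above 0 and 9 below, with a median of -0.03. Among all genes, 5.54% were lower at an unadjusted p under 0.05.

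Eng had 369, 422 and 472 CPM as the lowest, median and highest value in noninduced hearts and 341, 365 and 411 CPM in Parkin KO hearts. All 6 Parkin KO values were below the noninduced mean, but 3 of them lay above the lowest noninduced heart. The fitted log2 fold change came to -0.19 ± 0.085 (edgeR, adjusted p = 0.432). It was -0.12 among female libraries alone, and without noninduced replicate 3 it was -0.15. Eng lies at chr2:32646595-32682669 (GRCm38).

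Plvap, which forms the diaphragms of fenestrae and caveolae and marks venous and endocardial rather than capillary endothelium of the heart, had the largest difference and the widest interval. Noninduced libraries 1 to 6 held 23.3, 32.3, 14.1, 16.8, 42.0 and 15.5 CPM, whereas Parkin KO hearts ran from 13.2 to 17.8 CPM with a median of 15.8. The noninduced group thus held 3 values above every Parkin KO heart and 3 within their range. The fitted log2 fold change came to -0.61 ± 0.234 (edgeR, adjusted p = 0.424), and all 6 Parkin KO hearts were below the noninduced mean. The gene lies at chr8:71497765-71511752.

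The atrial genes Myl7, Sln and Bmp10 were high in some, but not all, of the libraries with high Plvap. Of the 2 highest Plvap values, 1 was in noninduced library 5 and 1 in noninduced library 2, the libraries in which Myl7, Sln and Bmp10 summed to 1362 and 886 CPM. Noninduced library 4, with an atrial sum of 127 CPM, had Plvap at 16.8 CPM, inside the Parkin KO range, and noninduced library 1, with an atrial sum of 17.9 CPM, had the third highest Plvap value, 23.3 CPM. Without noninduced libraries 2, 4 and 5, the log2 fold change of Plvap was -0.18, and without library 5 alone it was -0.38. Both fits left out the highest Plvap value, so a smaller difference followed from the choice of libraries. All 6 atrial markers were at an unadjusted p under 0.05, beside 11.4% of all genes. All were below 0, with a median log2 fold change of -4.25 and no adjusted call.

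Vwf, the clotting protein that endothelium stores and releases, was highest in libraries of the same set. Its noninduced values had a low of 85.8, a median of 114 and a high of 197 CPM, and its Parkin KO values a low of 82.7, a median of 104 and a high of 125 CPM. The 2 high values, 188 and 197 CPM, were in noninduced libraries 4 and 5, and the other 4 noninduced values lay within the Parkin KO range. The log2 fold change of -0.35 ± 0.186 (edgeR, adjusted p = 0.451) was 0.00014 without noninduced libraries 2, 4 and 5.

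The markers of endocardium and veins, a list that contains Vwf and Plvap, gave 8 tested genes, all below 0, with a median of -0.27. The summed level of the list was 239 to 437 CPM in noninduced against 206 to 259 CPM in Parkin KO hearts. At an unadjusted p under 0.05 were 2 of the 8 (25%), beside 11.4% of all genes. Besides Plvap, the other was Cytl1, a secreted protein of the endocardial marker list, at -1.02 ± 0.309 (edgeR, adjusted p = 0.417). Without noninduced libraries 2, 4 and 5 it was -0.80.

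None of the remaining 10 junction and surface genes reached an unadjusted p under 0.05. Cdh5 had 445 ± 90.2 CPM in noninduced against 395 ± 38.1 CPM in Parkin KO hearts (SD, n = 6 each), with the noninduced mean raised by library 1 at 603 CPM, and its log2 fold change of -0.17 was -0.08 without that library. Pecam1, the adhesion molecule most used to stain endothelium, had 163 ± 5.40 and 160 ± 13.2 CPM. Cldn5, the claudin of tight junctions, had 10.2 ± 2.12 and 12.6 ± 4.50 CPM, with 20.1 CPM in Parkin KO library 5. Egfl7, a protein that endothelium secretes into its matrix, had 80.3 ± 11.7 and 93.7 ± 15.4 CPM.

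Among the other members of this group, the log2 fold change was -0.20 for the adhesion molecule Icam2, -0.02 for the junction protein Esam, -0.07 for the guidance receptor Robo4 and -0.03 for Rasip1, which is needed to open vessel lumens. It was 0.11 for Emcn, a sialomucin of capillaries and veins, and 0.02 for the matrix protein Mmrn2. Their adjusted p-values lay between 0.557 and 0.941 (edgeR).

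The transcription factors had 2 log2 fold changes above 0 and 5 below, where 48% of all genes were below, with a median of -0.11. At an unadjusted p under 0.05 was 1 of 7 (14.3%), beside 11.4% of all genes, a share near the background. Sox7, at chr14:63943673-63950732, had 39.8, 44.1 and 64.5 CPM as the lowest, median and highest noninduced value and 31.4, 34.1 and 45.1 CPM in Parkin KO hearts. In 4 of 6 Parkin KO hearts Sox7 lay below every noninduced heart, and in libraries 1 and 5 it lay among them. The fitted log2 fold change came to -0.36 ± 0.133 (edgeR, adjusted p = 0.424), with all 6 Parkin KO hearts below the noninduced mean. Without noninduced library 1, which held the highest value, it was -0.26.

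Sox18, the highest of the factors per length at 50.2 FPKM, had 51.6, 74.1 and 108 CPM in noninduced against 61.3, 69.0 and 86.0 CPM in Parkin KO hearts (lowest, median, highest). The Parkin KO values lay wholly inside the noninduced range. The fitted log2 fold change came to -0.11 ± 0.145 (edgeR, adjusted p = 0.765).

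Sox17, the factor of the same subfamily tied to arterial identity, was on the other side of 0. It had 10.2 ± 1.26 CPM in noninduced against 12.2 ± 1.96 CPM in Parkin KO hearts (SD, n = 6 each), a log2 fold change of 0.25 ± 0.119 (edgeR, adjusted p = 0.439), with all 6 Parkin KO hearts above the noninduced mean. Whether Sox7 and Sox17 differ in their change was not tested. Erg, an ETS factor of all endothelium, had 41.5 ± 9.63 and 35.2 ± 2.96 CPM, a log2 fold change of -0.24, which was -0.11 without noninduced library 1 at 60.3 CPM. Of the other factors, Ets1 had a log2 fold change of 0.07, the Notch target Hey1 of -0.17 and Prox1 of -0.02.

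Of the arterial genes, Notch4, the endothelial Notch receptor and the highest of the group per length, had 73.8, 89.5 and 97.2 CPM in noninduced against 73.4, 89.6 and 93.9 CPM in Parkin KO hearts (lowest, median, highest). Its medians nearly coincided, and the fitted log2 fold change came to -0.06 ± 0.087 (edgeR, adjusted p = 0.793). Dll4, the Notch ligand of arterial and sprouting cells, had the smallest p of these 3, with 28.1, 34.8 and 46.0 CPM in noninduced against 29.0, 39.9 and 44.6 CPM in Parkin KO hearts. The Dll4 values of Parkin KO hearts lay inside the noninduced range, and the fitted log2 fold change came to 0.12 ± 0.124 (edgeR, adjusted p = 0.688). Efnb2, the arterial ephrin, had 27.9 ± 3.61 and 27.2 ± 0.613 CPM (SD, n = 6 each).

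In the wider Notch and BMP pathway, 7 of 17 genes were above 0 and 10 below, with a median of -0.10 and no adjusted call. Rbpj, the DNA-binding partner of activated Notch, had 38.0 ± 4.54 CPM in noninduced against 31.8 ± 1.93 CPM in Parkin KO hearts, a log2 fold change of -0.25 ± 0.086 (edgeR, adjusted p = 0.417). Smad6, an inhibitory SMAD of BMP signalling, had 24.7 ± 4.35 and 19.7 ± 2.64 CPM, at -0.33 ± 0.119 (edgeR, adjusted p = 0.424).

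The genes of capillary transport and signalling held the 1 member that was higher in Parkin KO hearts at an unadjusted p under 0.05, beside 5.82% of all genes. Fabp4, at chr3:10204088-10208576, had 174, 265 and 284 CPM as the lowest, median and highest noninduced value and 258, 320 and 353 CPM in Parkin KO hearts. In 5 of 6 Parkin KO hearts Fabp4 was above every noninduced heart, and Parkin KO library 1 lay within the noninduced range. The fitted log2 fold change came to 0.33 ± 0.117, or 1.26-fold (edgeR, adjusted p = 0.417), with all 6 Parkin KO hearts above the noninduced mean. It was 0.21 among female libraries alone and 0.23 without noninduced library 2, which held 174 CPM.

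Fabp4 is also abundant in fat, so adipocyte markers were read beside it. Adipoq, which fat cells secrete, had 0 to 0.47 CPM, and 8 of the 12 libraries had no read of it. Plin1, which coats their lipid droplets, had at most 1.13 CPM and Cidec at most 1.72 CPM, and the highest value of all 3 was in noninduced library 5. Of the 2 adipocyte list genes with enough reads to test, Lipe and Plin4, both of which muscle also expresses, Lipe had a log2 fold change of 0.50 ± 0.173 (edgeR, adjusted p = 0.417) and Plin4 of 0.21.

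The other 7 genes of capillary transport had log2 fold changes from -0.22 to 0.11. Gpihbp1 had 75.7 ± 11.2 CPM in noninduced against 81.7 ± 8.98 CPM in Parkin KO hearts (SD, n = 6 each), and Aqp1 ran from 346 to 480 CPM and from 359 to 482 CPM. Cav1, the coat protein of caveolae, had 157 ± 12.5 and 147 ± 20.5 CPM, and Nos3, the endothelial nitric oxide synthase, had 69.8 ± 10.5 and 63.2 ± 7.83 CPM. Ramp2, the partner of the adrenomedullin receptor, had 64.1 ± 15.1 and 54.8 ± 5.96 CPM. For Ly6c1 the means were 127 ± 42.1 and 111 ± 23.3 CPM, and because its paralog Ly6c2 is nearly identical its count is uncertain. Aplnr, the apelin receptor, had the widest range of any member by the ratio of highest to lowest heart (3.76), from 20.8 to 78.1 CPM, with means of 47.6 ± 15.3 and 45.5 ± 19.8 CPM.

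Among the 16 further genes of flow sensing, transport and vascular receptors, 5 were above 0 and 11 below, with a median of -0.10 and no adjusted call. Gja5, a connexin of arterial endothelium that atrial and conduction muscle also makes, had the smallest p, at -1.18 ± 0.402 (edgeR, adjusted p = 0.417). It had 34.9 and 40.2 CPM in noninduced libraries 2 and 5 and 6.19 to 10.1 CPM in the other 10 libraries. Without noninduced libraries 2, 4 and 5, and so without both high values, its log2 fold change was -0.11. Cav2, the partner of Cav1, had 18.7 ± 2.67 and 23.1 ± 4.08 CPM, at 0.30 ± 0.128 (edgeR, adjusted p = 0.424).

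Of 21 other endothelial markers, 7 were above 0 and 14 below, with a median of -0.09. The 2 smallest p-values were those of Tspan7, a tetraspanin, at -0.27 ± 0.119 (edgeR, adjusted p = 0.425) and Cd34, a sialomucin of endothelium and progenitors, at -0.26 ± 0.118 (edgeR, adjusted p = 0.437).

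All 7 tested lymphatic markers, Flt4 and Prox1 among them, had a log2 fold change below 0, with a median of -0.15. Lyve1, a hyaluronan receptor, stood apart with 18.6 to 29.5 CPM in noninduced against 12.4 to 20.8 CPM in Parkin KO hearts. Parkin KO library 2, at 20.8 CPM, was the one that reached the noninduced range. The log2 fold change of Lyve1 was -0.70 ± 0.150 (edgeR, adjusted p = 0.417). DESeq2 gave an adjusted p of 0.0349 and limma-voom one of 0.472, and DESeq2 was the only alternative that called Lyve1. After Lyve1 the smallest p of the list was that of Flt4. Of 9 tested macrophage markers, 3 were above 0 and 6 below, with a median of -0.05 and no adjusted call, and their summed level was 214 to 281 CPM in noninduced hearts and 177 to 265 CPM in the Parkin KO group. At an unadjusted p under 0.05 were 2 of the 9 (22.2%), beside 11.4% of all genes. They were Cd68, a lysosomal protein, at -0.43 and the complement gene C1qb at -0.32. The other complement genes of the list, C1qc and C1qa, were at -0.25 and -0.18. Csf1r, Mrc1, Emr1, Cd163 and Fcgr1 were at 0.02, 0.04, 0.03, -0.02 and -0.05. The part of macrophages in the Lyve1 difference was not tested.

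**Figure D3:**
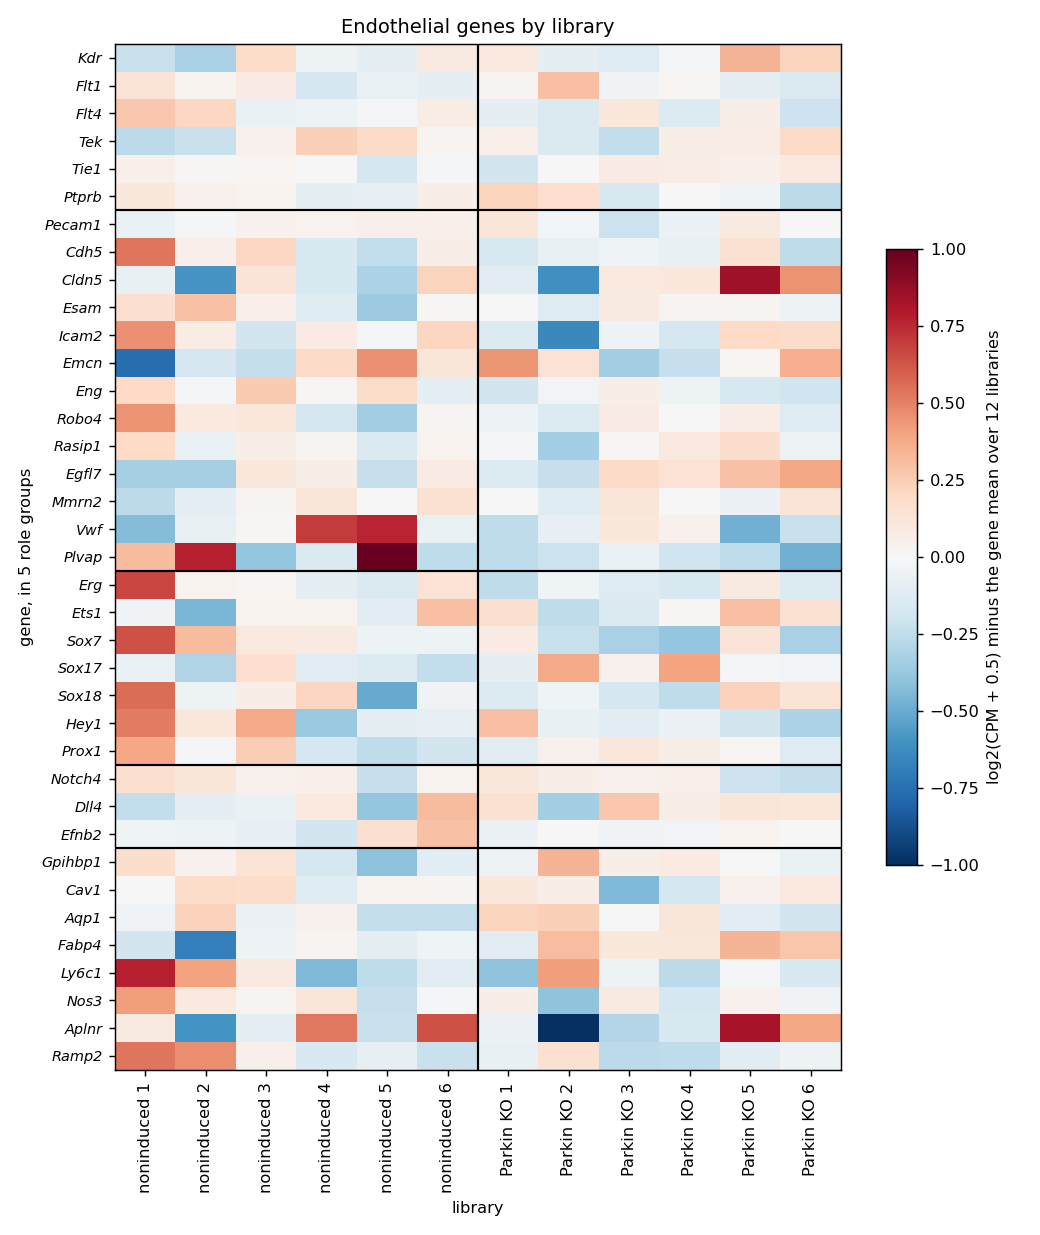
Each member's log2(CPM + 0.5) in each of the 12 libraries, minus its mean over all 12, in the 5 role groups (red above, blue below the mean; vertical line between noninduced and Parkin KO). Noninduced library 1 is the highest library for 14 of the 37 genes, and no block of genes separates the groups.

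Noninduced library 1 had the highest value of all 12 libraries for 14 of the 37 genes and the lowest for 4 (Tek, Emcn, Egfl7 and Mmrn2). The 14 were 5 of the 7 transcription factors (Erg, Sox7, Sox18, Hey1 and Prox1), 4 of the 13 junction and surface genes (Cdh5, Icam2, Robo4 and Rasip1), 3 of the 8 capillary genes (Ly6c1, Nos3 and Ramp2), Flt4 and Notch4. Robo4, for example, was at 116 CPM there and at 66.7 to 91.2 CPM elsewhere. The library had a mitochondrial read share of 16.0%, where the 12 libraries ran from 5.17% to 16.7%, the smallest scaling factor (0.884), the highest immediate-early sum (927 CPM) and an Esr1 level of 558 CPM. With no scaling factor, 9 members were highest there in place of 14. The median GC content of the transcripts was 54.4% for the 14 genes and 52.6% for the other 23. The same count was not made over all tested genes, so whether the pattern is particular to the members is not known. The part of these measures in the pattern was not tested.

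Spread of the members between hearts was often wider in noninduced mice, and the same comparison over all genes was not made. Measures of the whole libraries also spread more widely there. The SD of the scaling factor was 0.085 in noninduced and 0.026 in Parkin KO libraries. For the mitochondrial read share it was 4.36 and 1.73 percentage points. The coefficient of variation, the SD as a percentage of the mean, had a median of 15.3% in noninduced and 11.8% in Parkin KO hearts, and was larger in noninduced hearts for 25 of 37 members. It passed 30% for Plvap (46.2%), Vwf (34.2%), Ly6c1 (33.1%) and Aplnr (32.1%) in noninduced hearts and for Aplnr (43.5%) and Cldn5 (35.6%) in Parkin KO hearts. Cldn5 and Aplnr were both highest in Parkin KO library 5 (20.1 and 78.1 CPM) and lowest in Parkin KO library 2 (7.01 and 20.8 CPM). At the other extreme Efnb2 varied by 2.26% in Parkin KO hearts.

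**Figure D4:**
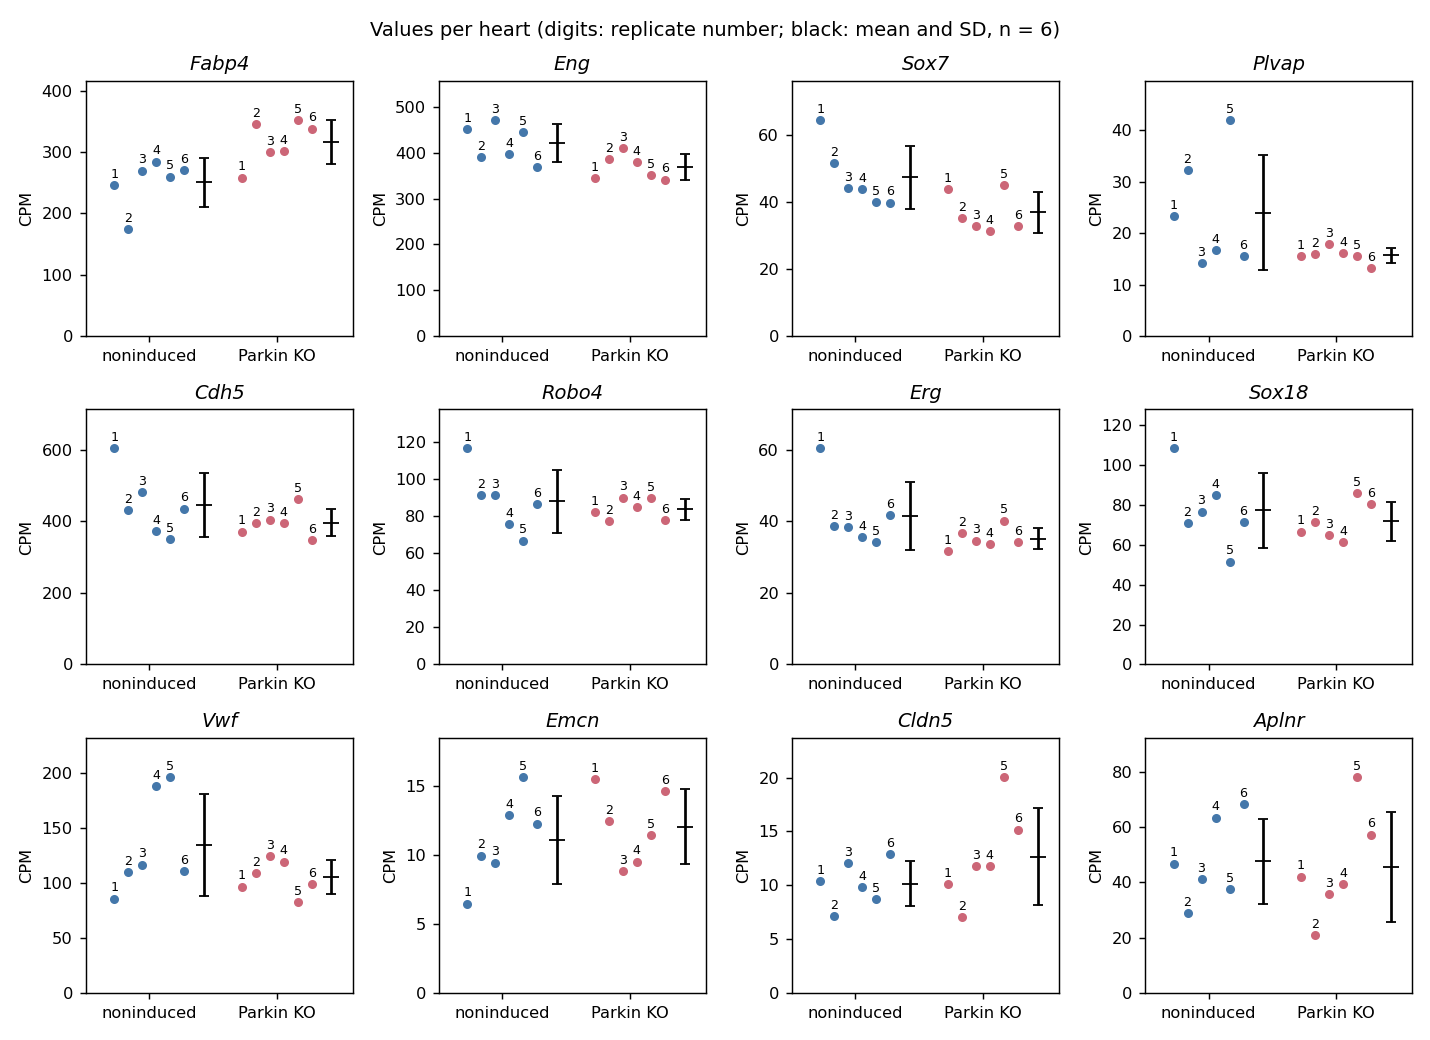
CPM of 12 members in each heart (blue noninduced, red Parkin KO, digits for the replicate number, black bars for the mean and SD of each group, n = 6). Fabp4 has Parkin KO hearts up to 353 CPM against at most 284 CPM in noninduced hearts, Plvap and Vwf have high noninduced hearts such as library 5 (42.0 and 197 CPM), and Cdh5, Robo4, Erg and Sox18 peak in noninduced library 1.

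Marker genes of other cell types of the tissue differed in both directions. Of 12 cardiomyocyte genes, 11 had a log2 fold change above 0, with a median of 0.13, whereas 8 of 10 fibroblast genes (median -0.21) and 9 of 12 genes of smooth muscle and pericytes (median -0.18) were below 0. None passed the adjusted threshold. The median of the endothelial members, -0.03, lay between these values. The part of tissue composition in any member's difference was not tested.

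Libraries were not stranded, so reads of overlapping genes cannot be told apart by strand. Exons of other genes overlapped 33.4% of the exon bases of Ramp2 on the same strand (Vps25) and 32.3% of those of Nos3 on the opposite strand, and for Rasip1 and Sox17 the larger overlap was 22.5% and 16.8%. These are shares of exon bases and not of reads, so the counts of these 4 members are uncertain by an amount not measured here.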

How the data were processed

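The deposited table of read counts per gene symbol and the deposited FPKM table cover the 12 libraries, 6 noninduced and 6 Parkin KO. The submitters' processing notes name HTSeq, Cufflinks 2.1, TopHat2 2.0.10 and Bowtie2, with build mm10, and per the labels' protocols the libraries were single-end, polyadenylated and not strand-specific. How reads with several hits were counted is not given in the sources used here, so counts of near-identical genes are uncertain. Counts of the targeted gene are not reported here. Groups come from the labels, and columns that abbreviate wild type were taken as noninduced by their numbers.

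Counts were tested in R 4.3.3 with edgeR 4.0.16 (TMM, filterByExpr, quasi-likelihood F test, two-sided, group term alone), with Benjamini-Hochberg adjustment over 13050 genes and a threshold of 0.05. CPM values are the deposited counts divided by TMM-scaled library sizes. Standard errors and 95% intervals were derived from the F statistic and are approximate. P-values weigh the difference between the groups against the spread between these hearts. Values per library were compared by exact permutation over the 924 splits. FPKM values, as the authors deposited them, served to order levels between genes and, in limma 3.58.1 on log2(FPKM + 0.1), as an alternative. From the FPKM fits 4 genes listed at 0 despite high counts were left out, none of them a member. No pair of libraries within a group was found to be a duplicate in a chi-square test of counts, and pairs across the groups were not checked in this way. The code was tested on simulated data.

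The members and the lists were chosen with earlier results of these data known. The members named with values are those at an unadjusted p under 0.05 and, in each role group, the one highest in FPKM and the one of smallest p. From each wider list the 2 genes of smallest p are named. Values of other members were added after they were seen. Alternatives were other scaling (RLE, upper quartile), no low-count filter, DESeq2 1.42.0, limma-voom, a replicate block, each library left out, female libraries only, a sex term, and leaving out noninduced libraries 1 and 3. Leaving out noninduced libraries 2, 4 and 5, which had the highest sums of Myl7, Sln and Bmp10, was chosen after seeing the data. Positions are from the GENCODE annotation of GRCm38.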

Additional observations from a re-analysis of the deposited data

Results flagged for a closer look

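Of 74 groups checked, each a member in 6 hearts, 7 held a heart set apart from its group by a gap above Dixon's critical share of the group's range. Chance flags about 1 in 20 groups. Among the 3 high values in Parkin KO hearts, Flt1 was at 204 CPM in library 2 with the next heart at 169 CPM, Gpihbp1 was at 98.8 CPM in the same library with the next at 82.7 CPM, and Hey1 was at 17.4 CPM in library 1 with the next at 13.4 CPM. In noninduced hearts, Erg was at 60.3 CPM in library 1 with the next at 41.8 CPM. Low values were those of Fabp4 in noninduced library 2 (174 CPM, next 246 CPM) and of Tie1 and Notch4 in noninduced library 5 (116 CPM, next 130 CPM, and 73.8 CPM, next 88.8 CPM). Without noninduced library 2 the log2 fold change of Fabp4 was 0.23 in place of 0.33.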

How the results depend on the processing

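No member was called in any of the 25 alternatives. Genes called over the whole table numbered 10 with DESeq2 and 1 without noninduced libraries 1 and 3, and 0 in the other 23. Genes at an unadjusted p under 0.05 numbered 628 in female libraries and 784 with a sex term, and 932 to 2131 when each library was left out, where noninduced libraries 1 (972) and 2 (932) and Parkin KO library 6 (944) lowered the count most. Members at an unadjusted p under 0.05 numbered 1 in female libraries, 2 with a sex term, 2 in FPKM without a filter and 3 to 6 when each library was left out. The median log2 fold change of members was -0.10 (-0.0975) without noninduced libraries 2, 4 and 5. With no scaling factor, 9 members were highest in noninduced library 1.

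With the replicate number as a block, 0 genes and 0 members were called, 1700 genes and 5 members were at an unadjusted p under 0.05, and the median of members was -0.03. The numbers do not pair the hearts: correlations of same-numbered deviations ran from -0.105 to 0.184, and no library matched its own number best.

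Of the members, 19 kept their sign in every alternative. The other 18 changed sign in at least 1, among them Vwf, Hey1 and Sox18, whose estimates over all libraries were -0.35, -0.17 and -0.11. With RLE factors and with DESeq2, Mmrn2 was -0.00085 and -0.0024. In FPKM, Tek was 0.017 (0.014 with a pseudocount of 1), Esam 0.012 and Prox1 0.018 (0.017). In female libraries, and with a sex term, Ptprb was 0.016, Esam 0.028, Emcn -0.034 and -0.036, Rasip1 0.021, Hey1 0.019, Prox1 0.048 and Notch4 0.036. Without noninduced libraries 1 and 3, Esam was 0.0067, Emcn -0.095, Robo4 0.048, Rasip1 0.011, Mmrn2 -0.049, Sox18 0.029, Hey1 0.031 and Prox1 0.14. Without noninduced libraries 2, 4 and 5, Flt1 was -0.038, Tek 0.047, Tie1 -0.0079, Vwf 0.00014, Ets1 -0.070 and Gpihbp1 -0.018. With each library left out, the ranges that crossed 0 were Flt1 -0.044 to 0.052, Tek -0.076 to 0.024, Tie1 -0.00081 to 0.077, Ptprb -0.067 to 0.020, Esam -0.100 to 0.019, Emcn -0.019 to 0.22, Robo4 -0.15 to 0.0073, Rasip1 -0.074 to 0.017, Mmrn2 -0.045 to 0.041, Ets1 -0.018 to 0.14, Prox1 -0.082 to 0.049, Efnb2 -0.093 to 0.013 and Aplnr -0.29 to 0.072. The cause of these sign changes was not tested. Total reads limit the lowest members most, since 1 read was worth 0.0548 to 0.0948 CPM.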
